A study of Mus musculus with 6 samples.

Results

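The chemokine receptor genes described here are Cxcr5, Cxcr4, Cxcr3, Cxcr6, Ccr4, Ccr6, Ccr7 and Ccr8. They were taken as every probe set whose annotated gene symbol is exactly one of these names, which gave 8 of 18193 named genes and 9 of the 45101 probe sets on the array, 2 of them for Cxcr6 and 1 for each of the other genes. RNA came from mouse CD4 T cells, isolated as CD4+CD25- from lymph nodes of C57BL/6 mice, grown for 2 days on anti-CD3 (2 µg/ml) and anti-CD28 (1 µg/ml) with TGF-β1 at 5 ng/ml and IL-2 at 200 U/ml, conditions that steer naive cells towards a regulatory T cell (Treg) fate. On day 1 the cells received a retrovirus. The E47 group (3 samples) received pMIT-E47-ER, which encodes the basic helix-loop-helix (bHLH) factor E47 joined to an estrogen receptor (ER) domain, and the control group (3 samples) received pMIT-bHLH-ER, for which the sources used here give no content beyond that name. Transduced cells of both groups were sorted as CD4+Thy1.1+ and spent a further 6 hours on the antibodies with IL-2 and 1 µM tamoxifen, which lets ER fusion proteins enter the nucleus. Each of 3 independent experiments gave 1 E47 and 1 control sample, from pools of 3, 3 and 4 mice aged 7, 8 and 9 weeks. Every sample had tamoxifen, so differences made in those hours and differences already present at the sort cannot be told apart, and E47 was supplied by a virus rather than by its own gene. Each sample is a bulk culture, in which fewer cells that carry a receptor and less RNA per cell cannot be told apart.

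Chemokine receptors are G protein-coupled receptors that turn a gradient of secreted chemokine into directed movement and adhesion. The set a T cell displays decides where it can go. CXCR5 leads it to B cell follicles and CCR7 to the T cell zone of lymph nodes, while CXCR4 responds to CXCL12 of stromal cells. CXCR3, CXCR6, CCR4, CCR6 and CCR8 are linked to entry into inflamed or barrier tissue and to particular helper or Treg subsets. E47 is a splice product of Tcf3 that binds DNA at E-boxes, short sites of the form CANNTG.

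The identity of the cells was read from 9 measured T cell and CD4 T cell markers, of which 1 rose and 0 fell in limma (2 higher and 1 lower at an unadjusted p under 0.05, compared with 4.39% and 5.67% of all genes), with a median log2 fold change of -0.02. Cd3d, a chain of the T cell receptor complex, had log2 means of 12.77 in E47 and 12.66 in control. Cd4 had log2 intensities of 8.21, 8.00 and 8.04 on the E47 arrays, against 8.21, 7.90 and 8.09 on the control arrays. Foxp3, the lineage factor of Treg cells, stood at 6.36, 7.83 and 6.07 in E47 samples and 6.42, 8.16 and 6.29 in control samples, so both cultures of experiment 2 were the highest. Tcf3, the gene of the introduced factor, had a log2 difference, E47 minus control, of -0.01 (SE 0.09) at its brightest probe set and of 0.28 and 0.02 at its others, and whether that probe set reads the introduced sequence was not analysed here. Thy1, whose Thy1.1 form was the sorting marker, was the 1 that rose, by 0.82 on the log2 scale (SE 0.09, limma adjusted p = 0.0498). Its adjusted p was 0.428 without the experiment as a block, 0.372 with experiment 2 left out and 0.435 with experiment 3 left out.

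Sequences just upstream of the receptors are shown because the introduced factor reads E-boxes. Windows of 300 bases, 250 before to 50 after an annotated start, were available from RefSeq (GRCm38.p6) for 6 of the 8 genes. Cxcr5 and Ccr7 had no window, so the receptor counts below do not cover them. Windows are printed for Cxcr4, whose signal was higher in E47, Cxcr6, whose signal was lower, and Cxcr3, whose signal stayed close to control. Capitals mark each CANNTG. The positions are chr1:128592250-128592549 on the minus strand for Cxcr4, chr9:123806227-123806526 on the plus strand for Cxcr6 and chrX:101734098-101734397 on the minus strand for Cxcr3.
Cxcr4: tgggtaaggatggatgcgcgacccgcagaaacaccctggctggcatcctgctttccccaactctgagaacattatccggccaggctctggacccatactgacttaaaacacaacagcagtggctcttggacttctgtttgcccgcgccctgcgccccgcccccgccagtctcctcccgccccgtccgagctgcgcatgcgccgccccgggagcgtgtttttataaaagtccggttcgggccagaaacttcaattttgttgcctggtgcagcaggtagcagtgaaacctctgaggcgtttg
Cxcr6: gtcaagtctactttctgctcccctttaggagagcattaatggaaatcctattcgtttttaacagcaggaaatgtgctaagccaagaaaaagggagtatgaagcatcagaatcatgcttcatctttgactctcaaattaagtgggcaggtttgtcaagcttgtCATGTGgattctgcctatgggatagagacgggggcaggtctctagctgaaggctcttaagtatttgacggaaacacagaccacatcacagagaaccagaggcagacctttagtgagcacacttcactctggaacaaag
Cxcr3: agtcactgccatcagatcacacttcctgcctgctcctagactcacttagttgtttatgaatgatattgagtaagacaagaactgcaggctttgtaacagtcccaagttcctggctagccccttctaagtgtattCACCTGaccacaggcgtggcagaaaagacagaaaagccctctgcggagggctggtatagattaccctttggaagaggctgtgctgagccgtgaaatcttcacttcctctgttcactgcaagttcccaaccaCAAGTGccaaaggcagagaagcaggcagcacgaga
The Cxcr4 window held 0 matches to CANNTG, the Cxcr6 window 1 and the Cxcr3 window 2. CANNTG and its special case CAGCTG read the same on both strands, so a search of 1 strand covers both. Among 32851 such windows of the mouse genome 72.3% held at least 1 match to CANNTG. Its special cases were rarer, with 16.3% for CAGCTG and 20.2% for CAGGTG on either strand. Of the receptor windows, those of Cxcr3 and Ccr4 held CAGGTG on 1 strand and none held CAGCTG. The windows of Ccr4 and Ccr8 held 2 and 1 matches, and the 2 windows of Ccr6, which has more than 1 start, held 1 and 2. A match describes letters and is no measured binding site, and a window without one says nothing about sites elsewhere.

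The first comparison asks which receptors differed between E47 and control cells. Cxcr5 and Cxcr4 rose, Cxcr6 was lower at both of its probe sets without passing the test on either, and the other receptors differed by at most 0.32 on the log2 scale. Each probe set was tested with limma across all 45037 probe sets that are not array controls, with the experiment as a block (the paired fit), two-sided, and with Benjamini-Hochberg adjustment at a threshold of 0.05. In that fit 2 of the 9 receptor probe sets passed, compared with 0.271% of all probe sets. Both rose, as did 0.238% of all, and 0 fell in limma, compared with 0.0333% of all. At an unadjusted p under 0.05, 2 receptor probe sets were higher, compared with 4.33% of all, and 4 were lower (3 without the block), compared with 4.74% of all. In 5 of the 9 the groups did not overlap, compared with 11.2% of all probe sets, and 8 of 9 differed with the same sign in all 3 pairs, compared with 31% of all. The receptors were chosen with earlier results of these data known, so these counts are no evidence about chemokine receptors as a class. Over the brightest probe set of each of the 8 genes the median log2 fold change was -0.22, against -0.03 over all 18193 genes.

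**Figure D1:**
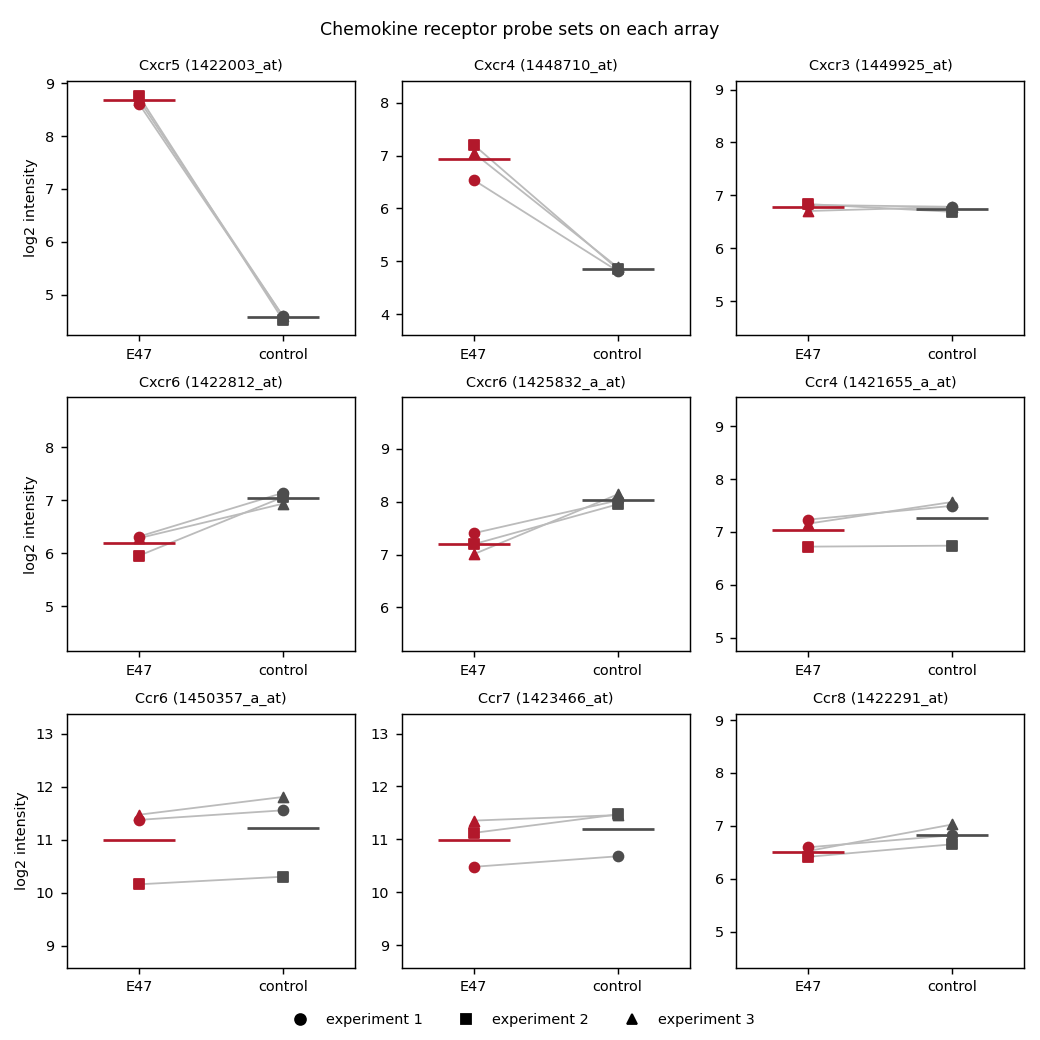
Log2 intensity (y axis) of each chemokine receptor probe set on the 3 E47 and 3 control arrays. Symbols give the experiment, grey lines join the arrays of 1 experiment, bars are group means, and every panel spans the same height in log2 units. Cxcr5 and Cxcr4 lie far higher in E47, Cxcr6 lies lower at both probe sets, and in Ccr6, Ccr4 and Ccr7 the experiments differ more than the groups.

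Cxcr5 encodes the receptor for CXCL13, which guides follicular helper T cells and B cells into follicles. The linear signal of its probe set, 1422003_at, was 390.4, 432.5 and 412.0 in E47 samples 1 to 3, against 24.1, 23.0 and 24.1 in control samples 1 to 3. Every E47 array was thus far above every control array, and within a group the arrays were nearly alike. On the log2 scale the mean was 8.68 ± 0.07 in E47 and 4.57 ± 0.04 in control (SD, n = 3 each). The rise was 17.3-fold, a log2 fold change of 4.11 (SE 0.09, 95% confidence interval 3.90 to 4.33, limma adjusted p = 5.02e-04). By unadjusted p it ranked 1 among all 45037 probe sets, and by size of rise it ranked 4. The 3 experiments gave within-pair differences of 4.02, 4.23 and 4.09. With 16 added to every value before the log the difference was 3.43, so the size of the fold depends on how the low control signal is read. The files used here give no detection call. As a gauge of background, 19 measured genes of unrelated tissues such as liver, heart and testis had log2 means of 2.90 to 6.50 over the 6 arrays. In limma 0 of them passed, and their median log2 fold change was -0.04. At an unadjusted p under 0.05, 0 were higher and 1 lower, compared with 4.39% and 5.67% of all genes. The 1 lower was Csn2 (log2 fold change -0.63, limma adjusted p = 0.209), which also set the upper end of the range. Pvalb differed by -0.23 (adjusted p = 0.574). Tnnt2, at 6.46 in E47 and 6.49 in control, was lowest in experiment 2 in both groups. The upper end is therefore a loose limit of background. The control mean of Cxcr5 lay well below it and within the range, so the fold, its interval and its rank describe intensities and not amounts of RNA.

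B cells carry much Cxcr5, so their markers were read beside it. Of 10 listed B cell markers 9 were measured, and in limma 0 of them rose and 0 fell, with 0 at an unadjusted p under 0.05 and a median log2 fold change of -0.07. Their summed intensity was 190 to 234 in E47 samples and 205 to 254.5 in control samples. Cd79a, which signals for the B cell antigen receptor, averaged 4.40 ± 0.10 in E47 and 4.60 ± 0.23 in control (SD, n = 3 each). Pax5, the B lineage factor, averaged 5.15 ± 0.08 in E47 and 5.30 ± 0.22 in control. The log2 means of the 9 markers ran from 3.46 to 5.23. The cultures had been sorted for CD4+Thy1.1+ cells, and the part of B cells in the Cxcr5 values was not tested.

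Follicular helper T cells are the other cells known for CXCR5, and their partner genes were read from a list of 10. In limma 0 of 10 passed in either direction, with 1 higher (0 without the block) and 3 lower at an unadjusted p under 0.05, compared with 4.39% and 5.67% of all genes, and the median log2 fold change was -0.19, below the -0.03 over all genes. Of the 10, 6 had a negative log2 fold change, compared with 57.7% of all genes. The 1 higher was Il21 (0.25, SE 0.09, adjusted p = 0.524), at low means of 4.10 in E47 and 3.85 in control. Cd200, a surface protein that restrains myeloid cells, had a log2 difference of -0.66 (SE 0.08, adjusted p = 0.0663), and the costimulatory receptor gene Icos -0.51 (SE 0.08, adjusted p = 0.125). The adjusted p of Cd200 was 0.0187 with 1 probe set per gene, 0.273 with a random block and 0.667 without a block. That of Icos was 0.0418, 0.421 and 0.795 in those fits. The factors tied to these receptors were read from a list of 14, of which 12 were measured. Bcl6, the master regulator of follicular helper cells, stood at 5.86 ± 0.59 in E47 and 6.11 ± 0.47 in control, and Ascl2, a bHLH factor known in mouse T cells to raise Cxcr5, at 4.53 ± 0.24 in E47 and 4.56 ± 0.21 in control (SD, n = 3 each). Within pairs 1, 2 and 3 Bcl6 differed by -0.58, -0.15 and -0.03 (limma adjusted p = 0.618), while the sign differed between pairs for Ascl2. The means of both lay within the range of the unrelated-tissue genes, Bcl6 towards its loosely set upper end, so expression of either is not shown. The 2 of 12 that rose were Id2 (log2 difference 2.64, SE 0.17, adjusted p = 0.00673) and Id3 (1.63, SE 0.13, adjusted p = 0.0161), whose products bind E proteins and keep them off DNA. Of the list 0 fell, and 0.44% of all genes passed in either direction. At an unadjusted p under 0.05, 4 were higher and 2 lower, compared with 4.39% and 5.67% of all genes, and the median log2 fold change was 0.01. With experiments 2 and 3 left out in turn the adjusted p was 0.05003 and 0.171 for Id2, and 0.122 and 0.0844 for Id3.

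Cxcr4 encodes the receptor for CXCL12 and is widely expressed on lymphocytes. The linear signal of its probe set, 1448710_at, was 92.9, 147.3 and 132.5 in E47 samples, against 28.2, 28.9 and 29.6 in control samples. The groups were well apart, and the E47 arrays were more spread than the control arrays, with experiment 1 the lowest. The log2 mean was 6.93 ± 0.35 in E47 and 4.85 ± 0.04 in control (SD, n = 3 each), a 4.22-fold rise with a log2 difference of 2.08 (SE 0.14, 95% confidence interval 1.74 to 2.41, limma adjusted p = 0.00708). Pairs 1, 2 and 3 differed by 1.72, 2.35 and 2.16. The call was lost with experiment 2 left out (adjusted p = 0.0588) and with experiment 3 left out (0.176), while Cxcr5 passed in each case (0.0438 at most). The log2 fold change was 1.62 with 16 added to every value, and the control mean lay within the range of the unrelated-tissue genes, so this fold too describes intensities.

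**Figure D2:**
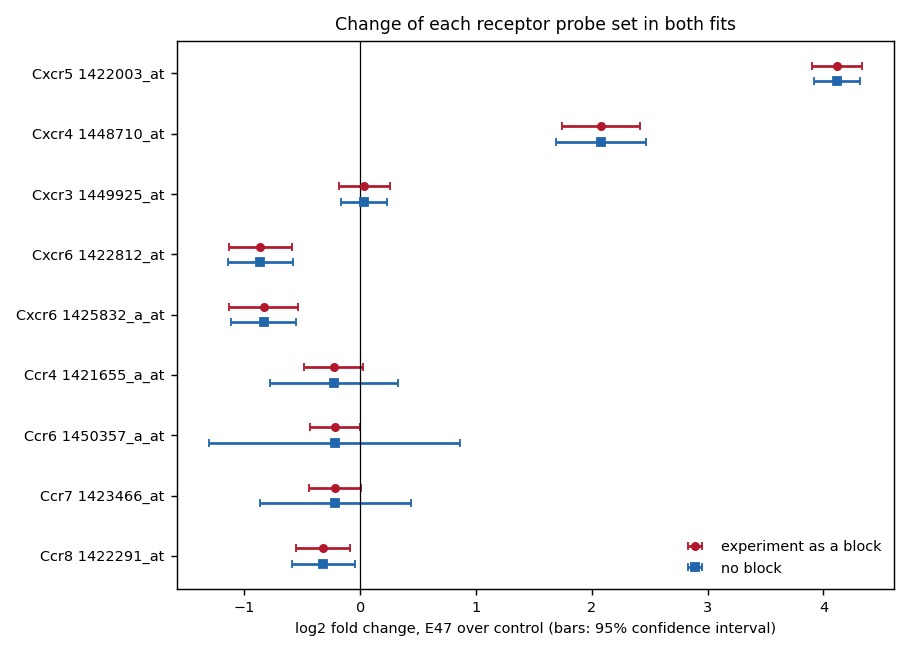
Log2 fold change of E47 over control (x axis) for each receptor probe set, with 95% confidence intervals from the fit with the experiment as a block (red circles) and without it (blue squares). The intervals of Cxcr5, Cxcr4, both Cxcr6 probe sets and Ccr8 lie on 1 side of 0 in both fits, and those of Ccr4, Ccr6 and Ccr7 are much wider without the block.

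Cxcr6 encodes the receptor for CXCL16 and is found on effector and tissue-resident T cells. The brighter probe set (1425832_a_at) had log2 levels of 7.40, 7.20 and 7.01 in E47 samples, against 8.02, 7.95 and 8.14 in control samples. The other (1422812_at) had 6.31, 5.95 and 6.28 in E47 samples, against 7.14, 7.06 and 6.94 in control samples. At both, all 3 E47 arrays were below all 3 control arrays. The log2 fold changes were -0.83 (SE 0.12, 95% confidence interval -1.13 to -0.54, adjusted p = 0.10) and -0.86 (SE 0.11, 95% confidence interval -1.14 to -0.59, adjusted p = 0.0751), which did not pass over all probe sets. Without the block the adjusted p was 0.0899 and 0.0819, so neither probe set passed there either. Both passed with the experiment as a random block (0.0438 and 0.0362), with an intensity trend (0.0113 and 0.0121) and with experiment 1 left out (0.0287 and 0.0424). Neither passed with experiment 2 left out (0.511 and 0.402) or experiment 3 left out (0.493 and 0.352). When 1 value per gene was tested, over 18193 genes in place of 45037 probe sets, the adjusted p was 0.0322 for the brightest probe set and 0.00526 for the mean of both.

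Cxcr3, the receptor for the interferon-induced chemokines CXCL9, CXCL10 and CXCL11 and a mark of Th1 cells, had log2 levels of 6.82, 6.83 and 6.70 in E47 samples, against 6.78, 6.69 and 6.78 in control samples. The groups overlapped, and the direction differed between pairs. Its log2 fold change was 0.03 (SE 0.09, adjusted p = 0.924), and the 95% confidence interval, -0.18 to 0.25, leaves room for a small change in either direction. After quantile normalization the value was -0.0096, and without experiment 2 it was -0.021.

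Ccr8, a receptor of Treg and Th2 cells for CCL1, had log2 levels of 6.59, 6.41 and 6.52 in E47 samples, against 6.82, 6.65 and 7.03 in control samples. The groups did not overlap, though the highest E47 array lay only just below the lowest control array. E47 minus control was -0.32 on the log2 scale (SE 0.10, 95% confidence interval -0.56 to -0.09, adjusted p = 0.436). Ccr4, which binds CCL17 and CCL22 and is found on Th2, Treg and skin-homing cells, had 7.23, 6.72 and 7.16 in E47 samples, against 7.49, 6.74 and 7.57 in control samples, a difference of -0.23 (SE 0.10, 95% confidence interval -0.49 to 0.03, adjusted p = 0.589). Here the groups overlapped, and both cultures of experiment 2 were the lowest.

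Ccr6, the CCL20 receptor of Th17 and some Treg cells, had 11.38, 10.16 and 11.47 in E47 samples, against 11.56, 10.30 and 11.81 in control samples. Ccr7, which brings naive and central memory T cells into lymph nodes, had 10.48, 11.12 and 11.35 in E47 samples, against 10.68, 11.47 and 11.46 in control samples. In both genes the groups overlapped while each E47 array lay below its own control. The log2 fold changes were -0.22 (SE 0.09, adjusted p = 0.547) for Ccr6 and -0.22 (SE 0.09, adjusted p = 0.560) for Ccr7. Without the block their 95% confidence intervals ran from -1.30 to 0.86 and from -0.87 to 0.44. Of the 9 receptor probe sets, 6 were thus lower in E47 in all 3 pairs, compared with 17.5% of all probe sets. These 6 belong to 5 of the 8 genes.

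**Figure D3:**
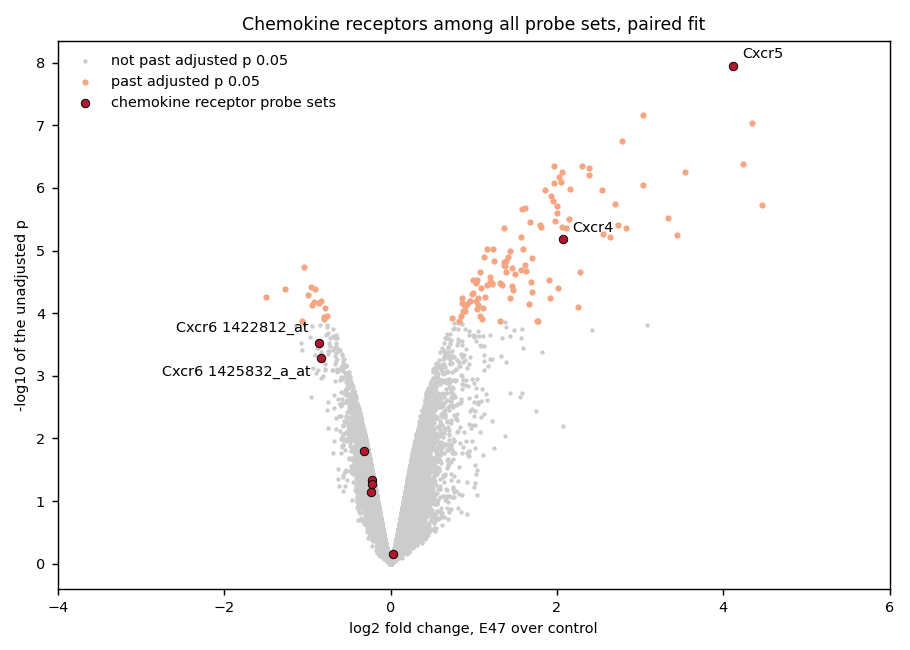
Log2 fold change of E47 over control (x axis) against -log10 of the unadjusted p in the paired fit (y axis) for all 45037 probe sets. Orange points passed the adjusted threshold, and the 9 receptor probe sets are dark red. Cxcr5 has the lowest p of all probe sets, Cxcr4 lies among the rises, and both Cxcr6 probe sets lie just below the falls that passed.

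The receptors also differed in how much they moved with the experiment. This was tested with the F test of the experiment in the same limma fit, adjusted over all probe sets, of which 0.604% passed. Ccr6 was the 1 of 9 receptor probe sets that passed (adjusted p = 0.0170). Averaged over both groups its log2 level was 11.47, 10.23 and 11.64 in experiments 1, 2 and 3, so experiment 2 lay 1.32 below the mean of the other experiments. Foxp3 was highest in that same experiment. Ccr7 ran differently, with 10.58, 11.30 and 11.41 in experiments 1, 2 and 3 (adjusted p = 0.0704). Ccr4 had 7.36, 6.73 and 7.36 (adjusted p = 0.151). Cxcr5 hardly moved with the experiment, with averages of 6.60, 6.64 and 6.64 (adjusted p = 0.975). Age of the mice and experiment changed together and cannot be told apart.

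**Figure D4:**
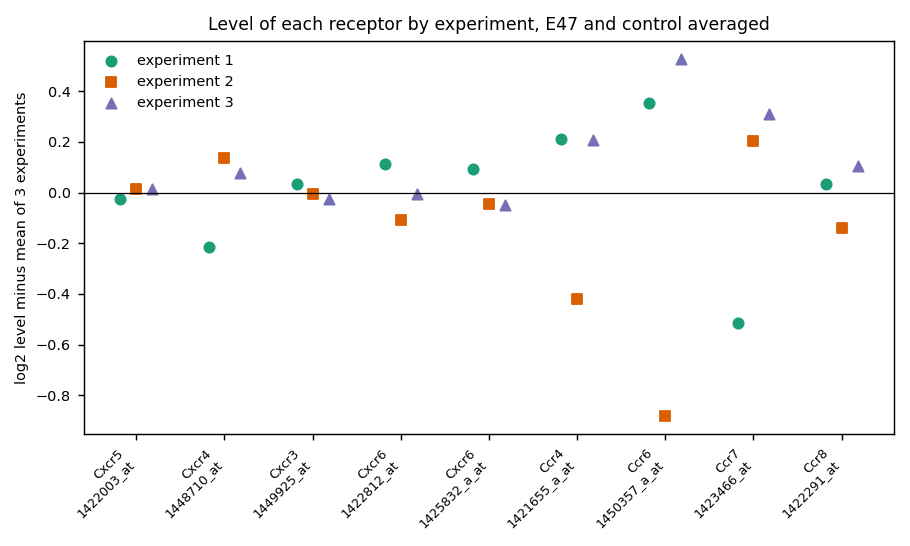
Log2 level of each receptor probe set in experiments 1, 2 and 3, averaged over the E47 and control array of that experiment and shown as the difference from the mean of the 3 experiments (y axis). Ccr6 and Ccr4 are lowest in experiment 2 and Ccr7 in experiment 1, whereas the Cxcr5 and Cxcr3 points lie close to 0.

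Among other chemokine and related chemoattractant receptors no call was made. Of 17 listed, 15 were measured, and in limma 0 rose and 0 fell. At an unadjusted p under 0.05, 0 were higher and 2 lower, compared with 4.39% and 5.67% of all genes. All but Gpr183 had a mean level within the range of the unrelated-tissue genes or below it. The lack of calls therefore does not show that these receptors stayed unchanged. Their changes on the log2 scale ran from -0.40 to 0.10 with a median of -0.12. Ackr2, a scavenging receptor that clears inflammatory chemokines, stood at 5.15 ± 0.30 in E47 and 5.47 ± 0.11 in control, and Ccr3, the eotaxin receptor of eosinophils, at 2.89 ± 0.09 in E47 and 3.16 ± 0.13 in control (SD, n = 3 each). Whether Cxcr5 and Cxcr4 differ from these receptors as a class was not tested.

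The ligands of these receptors were read next. Of 13 listed, 11 were measured, all 11 had a negative log2 fold change, compared with 57.7% of all genes, and their median was -0.22. All but Ccl1 and Ccl20 had mean levels within the range of the unrelated-tissue genes. Cxcl16, at 6.13 in E47 and 6.37 in control, lay near its loosely set upper end. Of the unrelated-tissue genes 15 of 19 were negative as well, so a shared sign alone is not particular to the ligands. The median of the unrelated-tissue genes was -0.04, and 1 of the 19 was lower at an unadjusted p under 0.05. Why the ligands lay lower in E47 was not tested. In limma 1 ligand fell and 0 rose. At an unadjusted p under 0.05, 5 were lower (4 without the block), compared with 5.67% of all genes. The one that fell was Ccl1, the ligand of CCR8. It had log2 levels of 7.97, 8.57 and 7.41 in E47 samples, against 8.98, 9.88 and 8.91 in control samples. Every E47 array was below every control array, and experiment 2 was the highest in both groups. The log2 fold change was -1.27 (SE 0.12, adjusted p = 0.0233). Its adjusted p was 0.622 without the block, 0.196 with experiment 2 left out and 0.258 with experiment 3 left out. Ccl22, a ligand of CCR4, had a log2 difference of -0.36 (SE 0.08, adjusted p = 0.303). Cxcl13, the ligand of CXCR5, stood at 4.59 ± 0.15 in E47 and 4.62 ± 0.20 in control, and Cxcl12, the ligand of CXCR4, at 4.08 ± 0.15 in E47 and 4.16 ± 0.13 in control (SD, n = 3 each). The groups overlapped for both. Within pairs 1, 2 and 3, E47 minus control was -0.07, -0.10 and -0.08 for Cxcl12 (adjusted p = 0.777), while the sign differed between pairs for Cxcl13 (adjusted p = 0.972). Ccl20, the ligand of CCR6, had 10.54, 9.21 and 9.51 in E47 samples, against 10.75, 10.12 and 10.66 in control samples, and overlapped between groups (log2 fold change -0.75, SE 0.18, adjusted p = 0.338).

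**Figure D5:**
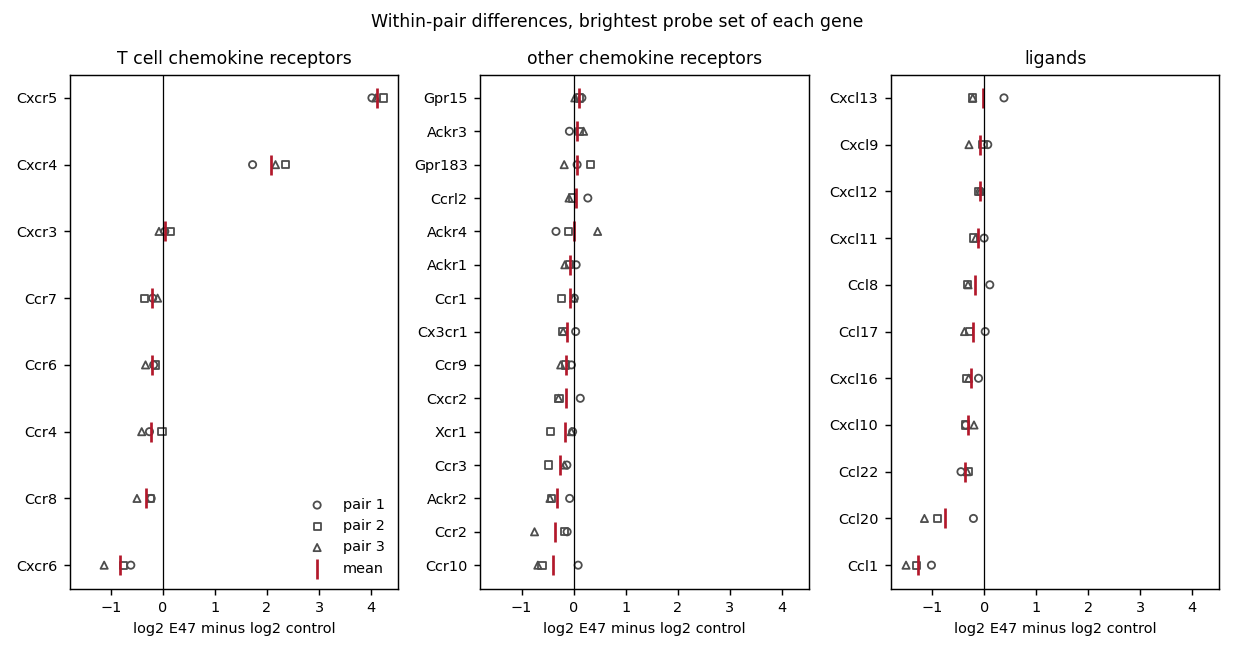
Differences between E47 and control within each pair (open symbols, x axis in log2 units) and their mean (red bar) for the brightest probe set of the 8 T cell chemokine receptors, 15 other chemokine receptors and 11 ligands. Cxcr5 and Cxcr4 stand far to the right of 0 in all 3 pairs, and Ccl1 furthest to the left among the ligands.

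Downstream of the receptors, 19 of 20 listed genes of G protein signalling and receptor desensitisation were measured, of which 0 rose and 1 fell in limma. At an unadjusted p under 0.05, 2 differed in each direction, compared with 4.39% of all genes higher and 5.67% lower. The median log2 fold change was -0.07. Rgs2, which shortens G protein signals, was at 7.80 ± 0.13 in E47 and 8.71 ± 0.19 in control (SD, n = 3 each), a log2 difference of -0.91 (SE 0.08, adjusted p = 0.0233, and 0.0717 without the block). With experiments 2 and 3 left out in turn its adjusted p was 0.190 and 0.306. Pik3r5, a regulatory subunit of the PI3K gamma that chemokine receptors activate, had a log2 difference of 1.08 (SE 0.14, adjusted p = 0.0793, with 0.0244 for 1 probe set per gene and 0.139 without the block). Among 10 measured homing and egress genes 0 passed in limma, with a median of -0.05. At an unadjusted p under 0.05, 2 were higher and 1 lower, compared with 4.39% and 5.67% of all genes. Selplg, the selectin ligand PSGL-1, had a log2 difference of 0.56 (SE 0.09, adjusted p = 0.116), and Cd69, an activation marker that holds cells in lymph nodes, 0.46 (SE 0.09, adjusted p = 0.196).

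Markers of other cells were read for the same arrays. Of 9 measured myeloid and dendritic cell markers 0 passed in limma and 1 was lower at an unadjusted p under 0.05, compared with 5.67% of all genes. They had a median log2 fold change of -0.11 and a summed intensity of 287 to 310 in E47 samples and 310 to 330 in control samples. Cd14 stood at 3.57 ± 0.10 in E47 and 3.82 ± 0.10 in control, and Lyz2 at 3.92 ± 0.14 in E47 and 4.12 ± 0.04 in control (SD, n = 3 each). Of 6 NK and CD8 T cell markers 0 passed, and 2 were higher at an unadjusted p under 0.05, compared with 4.39% of all genes. Their median log2 fold change was 0.18, and their summed intensity was 379 to 625 in E47 samples and 313 to 445 in control samples. The 2 higher ones were the T-box factor Eomes, at a log2 difference of 0.60 (SE 0.10, adjusted p = 0.153), and the CD8 chain Cd8b1, at 0.51 (SE 0.13, adjusted p = 0.365). Ncr1, the NK cell receptor, was at 3.73 ± 0.04 in E47 and 3.85 ± 0.04 in control. The part of myeloid, dendritic, NK or CD8 T cells in the receptor values of the sorted cultures was not tested. Among the T cell markers Cd3g, another chain of that complex, differed by 0.39 (SE 0.09, adjusted p = 0.312).

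Genes with the most similar pattern over the 6 arrays were found by Pearson correlation of log2 values with each receptor's brightest probe set, among probe sets with an SD of at least 0.5. The 6 points fall into 2 groups, so these values mostly describe a shared difference between E47 and control. For Cxcr5 they were Cdyl2 (r = 0.995), Grn (0.995), Gprin2 (0.993) and Pstpip2 (0.993). Of these Grn encodes progranulin, a secreted growth factor precursor, and Gprin2 had a log2 fold change of 4.35, close to the 4.11 of Cxcr5. Cdyl2 had 1.15 at the matched probe set but 0.43 as the mean over its probe sets (limma adjusted p = 0.104), so its probe sets differed. For Cxcr4 they were Gpr25 (0.997), an orphan G protein-coupled receptor, the Krüppel-like factor Klf4 (0.996), Rapgef5 (0.990) and Grn (0.988), the last at another probe set than for Cxcr5. For Cxcr6 they were Rgs2 (0.940), the cytotoxic granule gene Nkg7 (0.924), Pnn (0.919) and Pdzk1ip1 (0.896).

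Genes that lie next to the receptors on the chromosome were compared with them, by the 2 protein-coding neighbours on each side in RefSeq. Around Cxcr5 the log2 fold changes were -0.19 for Upk2, 0.13 for Bcl9l, 0.23 for Ddx6 and -0.27 for Treh, against 4.11 for Cxcr5. Around Cxcr4, where Dars, the nearest neighbour on 1 side, was not measured, they were -0.02 for Mcm6, -0.16 for Thsd7b and 0.09 for Cd55b. Around Cxcr6 they were -0.15 for Ccr9, -0.15 for Fyco1, -0.17 for Xcr1 and -0.07 for Ccr1, of which Ccr9, Xcr1 and Ccr1 are chemokine receptor genes themselves, against -0.83 and -0.86 for Cxcr6. The adjusted p-values of these 11 neighbours in limma were 0.509 or more. Only Upk2, Bcl9l, Ddx6 and Mcm6 had group means above the range of the unrelated-tissue genes. The others, among them all neighbours of Cxcr6, lay within that range or below it. For those the lack of a call does not show that they stayed unchanged.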

How the data were processed

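Each probe set has 1 deposited intensity on every array, made with RMA per the submitters' processing notes, which give no version. RMA corrects background, equalises arrays and summarises probes. The intensity values are linear (median 34.3 to 35.4 per array), so log2 was taken. Gene names came from the platform annotation, in which 34958 probe sets had 1 symbol, 932 several and 9211 were not listed, and 64 control probe sets were left out of the tests. Of 150 listed gene symbols 137 were measured, and each gene of a list was read at its brightest probe set. Read in that way, 0.44% of all 18193 genes passed in the paired fit in either direction.

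Titles gave each sample's group and number. The fit used limma 3.58.1 (lmFit, eBayes) in R 4.3.3 with group and experiment as terms, and the fit without the experiment was an alternative. The pairing rests on the design text, which describes independent experiments, and on the mouse ages. Same-numbered arrays had deviations from the group means that correlated at 0.09, 0.52 and 0.31, against -0.43 to 0.22 for other pairs, and the first lies under the limit of 0.1 used to accept a pairing from the data alone. The code was tested on simulated data.

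The named genes were all receptor probe sets, the genes past the threshold in each list (at most 6) or its 2 lowest p-values, and the 4 most similar patterns. Neighbouring genes, Foxp3, Cd3d, Cd4, Tcf3, Bcl6, Ascl2, Il21, Ncr1, Tnnt2, Cxcl12, Cxcl13, Cxcl16 and Ccl20 were added outside that rule after values were seen. The members and lists were chosen with earlier results of these data known. Arrays carry no read depth, and 3 arrays per group limit the precision.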

Additional observations from a re-analysis of the deposited data

How the results depend on the processing

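Of 115 receptor values under up to 13 alternatives, 103 kept direction and side of the threshold, 2 lost the call, 8 gained it and 2 turned direction. Cxcr5 passed in all 13, with a log2 difference of 3.43 to 4.16. The 2 that turned were Cxcr3, at -0.0096 after quantile normalization and -0.021 without experiment 2 (-0.021 to 0.091 with any 1 experiment left out), neither called. The 2 lost were Cxcr4 without experiment 2 or 3, and the 8 gained were all Cxcr6. With 1 experiment left out, the receptor probe sets called ranged from 1 to 4 (2 with all experiments), those higher from 1 to 2 and those lower from 0 to 2. A random block and an intensity trend each called 4, 2 of them lower, and testing 1 value per gene (the brightest probe set or the mean) called 1 as lower. Receptors that differed between experiments numbered 1 in the paired fit, 2 above the median brightness or with 16 added, and 3 with an intensity trend.

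Over all probe sets the paired fit called 122, 107 higher and 15 lower. Without the replicate block limma called 52, all higher and 0 lower (1494 were lower at an unadjusted p under 0.05), and the same 2 receptors were called, with no other receptor call changed. The brightest probe set per gene gave 208 (66 lower), the gene mean 201 (67 lower) and an intensity trend 558 (362 higher, 196 lower). Lower calls numbered 6 with a random block, 41 above the median brightness and 25 with 16 added. With 1 experiment left out the count ranged from 4 to 551, higher from 4 to 486 and lower from 0 to 65; it was 551 without experiment 1, 34 without 2 and 4 without 3, and the last 2 had 0 lower in limma (869 and 1210 at an unadjusted p under 0.05). Of 417 values of the other named genes, 349 kept direction and side, 29 lost the call, 39 gained it and 0 turned. Leave-one-out fits rest on 2 pairs. The median log2 fold change of all probe sets lay between -0.0173 and 0.00314 under the scalings tried.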
